A study of Mus musculus with 16 samples.

Results

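The connexin genes encode the subunits of gap junctions, and the 7 described here are Gja1, Gja3, Gja4, Gja5, Gjb2, Gjb5 and Gjc1, chosen by symbol through their Ensembl IDs among the 39043 entries of the total RNA table. They were followed across 3 cell populations of C57BL/6 mouse heart. CSCs (cardiac stem cells, 3 libraries) were heart cells sorted as CD45-negative, CD31-negative and c-kit-positive, and the study's methods describe the replicates as coming from a single expanded clone. iCMs (3 libraries) are described by the study as contracting cells obtained from CSC cardiospheres. The medium was StemPro with BMP-4, Activin A, beta-FGF, Wnt11 and Wnt5A, followed by DKK1. The iCMs were sequenced as a bulk population with no sort for myocytes. aCMs (2 libraries) were cardiomyocytes isolated from enzyme-perfused adult hearts. The comparisons ask how iCMs stand between CSCs and the adult myocyte.

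A connexin hexamer forms a hemichannel, and hemichannels of neighbouring cells dock into a channel that passes ions and small molecules. In the working myocardium these channels sit at the intercalated disc and carry the electrical impulse from myocyte to myocyte. The heart uses several connexins by region. Gja1 (Cx43) is the main one of ventricular and atrial working muscle, Gja5 (Cx40) that of the atria and the fast conduction system, and Gjc1 (Cx45) that of the early heart tube and the nodes. Gja4 (Cx37) and Gja5 also join endothelial cells of arteries. Gja3 (Cx46) is known from lens fibre cells, Gjb2 (Cx26) from the cochlea and other epithelia, and Gjb5 (Cx31.1) from stratified epithelium.

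Libraries held 29.9 to 63.2 M estimated counts in CSCs, 13.4 to 31.2 M in iCMs and 11.1 to 14.6 M in aCMs. Levels are CPM, a gene's count over the TMM-scaled library size in M, and are compared between libraries only, since no transcript length was used. A gene was called higher or lower when its adjusted p was below 0.05 and its fold change at least 2.5 in edgeR's quasi-likelihood test, fitted to all 8 libraries and 20254 genes. The cardiomyocyte markers followed the labels, with a summed level over 13 genes of 57.1 to 124 CPM in CSCs, 19600 to 29520 CPM in iCMs and 175100 to 207200 CPM in aCMs. The Y-linked gene Eif2s3y was at 0.106 to 0.168 CPM in CSCs and at 29.6 to 33.7 CPM in iCMs, while Xist, the transcript of the inactive X, was at 562 to 635 CPM in CSCs and 187 to 210 CPM in iCMs. In aCMs, Eif2s3y was at 0.263 CPM in the first library and 84.8 CPM in the second, and Xist at 125 and 68.8 CPM. The part of these differences between libraries in iCMs vs aCMs was not tested. The study describes replicates of a single clone, yet Eif2s3y differed between every CSC and every iCM library. The CSCs sequenced are therefore not taken here as the starting cells of these iCMs. In the comparison of iCMs with CSCs, the origin of the cells and their differentiation cannot be told apart. The labels number the replicates but name no separate cultures or animals, so the p-values measure the spread between these libraries.

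Of the 7 genes, 6 passed the filter on low counts and Gjb2 did not. In iCMs vs CSCs, 5 of the 6 were called higher, Gja1, Gja3, Gja4, Gja5 and Gjb5, and 0 lower, where 22% of all tested genes were called higher and 7.16% lower. In iCMs vs aCMs, 2 were called higher, Gja5 and Gjb5, and 2 lower, Gja1 and Gja3, where 19.6% of all genes were called higher and 15.3% lower. In aCMs vs CSCs, 4 were called higher, Gja1, Gja3, Gja4 and Gja5, and 0 lower, against 24.2% and 20.4% of all genes. The counts of called genes in every list below are read against these shares. The members and lists were chosen with earlier results of these data known, so the counts are a description and no independent test. Gja3, with 1 count in all of CSCs, passed the filter through its counts in the other groups. In iCMs vs CSCs the libraries of the groups did not overlap for 5 of the 6 genes, all higher, where 30.4% of all genes were higher and 27.5% lower without overlap. In iCMs vs aCMs, 2 were higher and 2 lower without overlap (40.9% and 33.1% of all genes), and in aCMs vs CSCs 4 were higher and 1 lower (34.8% and 37.4%). The median log2 fold change of the 6 genes was 4.42, -0.15 and 4.42 in these comparisons, beside -0.02, 0.19 and -0.10 over all tested genes. The 3 comparisons share libraries and are not independent of each other. With library totals in place of TMM scaling, the median over all genes moved from 0.19 to 0.89 in iCMs vs aCMs and from -0.10 to -0.76 in aCMs vs CSCs, and the share of higher genes among those called went from 56.2% to 79.3% and from 54.2% to 36.3%.

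**Figure D1:**
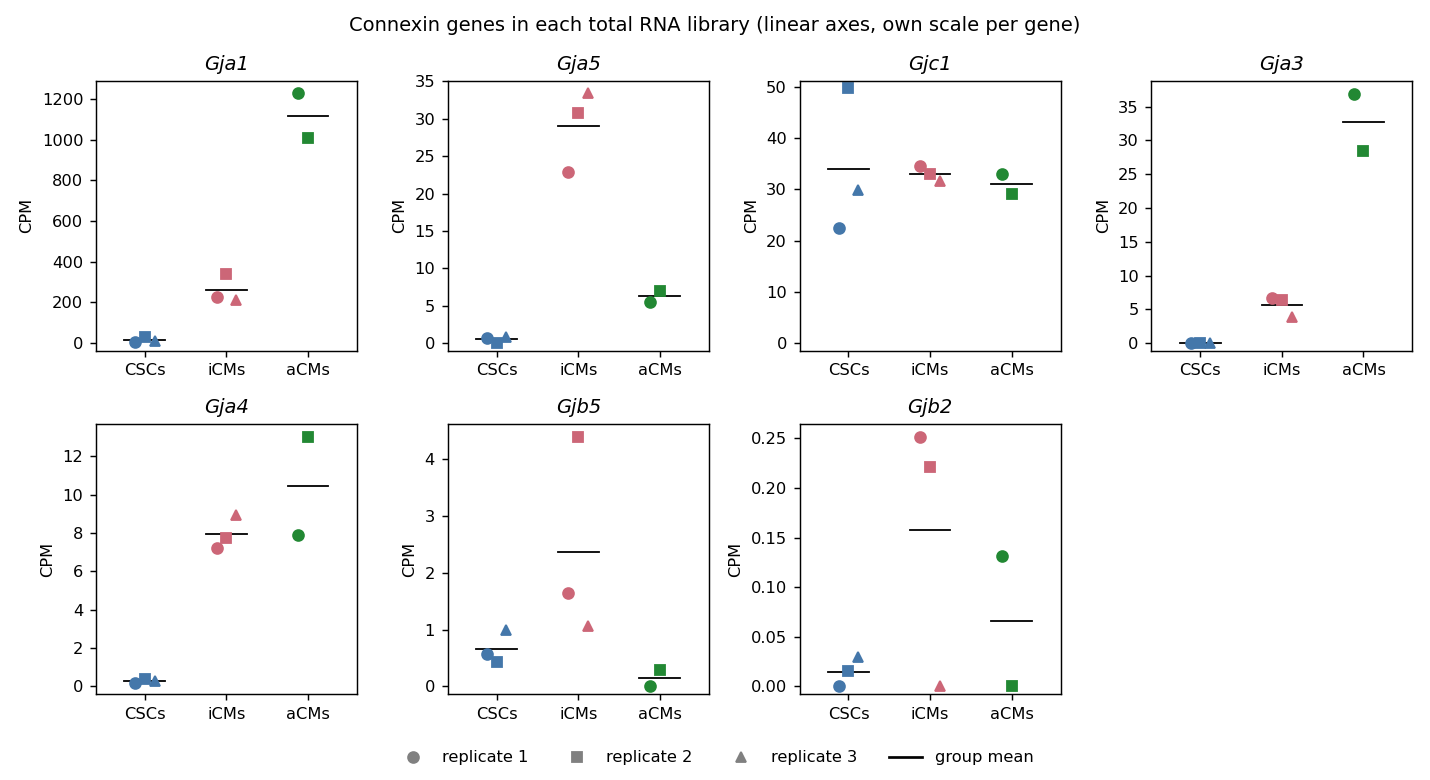
Level in CPM (linear vertical axis, own scale per gene) of each connexin gene in the 3 CSC, 3 iCM and 2 aCM libraries; points are libraries, shaped by replicate number, and bars are group means. Gja1 and Gja3 stepped up from CSCs to iCMs to aCMs, Gja5 and Gjb5 were highest in iCMs, Gja4 was at like levels in iCMs and aCMs, Gjc1 overlapped between all groups, and Gjb2 lay near the limit of detection.

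The proximal promoters of Gja1 and Gja5 are shown because these 2 connexins stood in opposite order in iCMs and aCMs. Each is the 250 bases before the annotated start in the RefSeq annotation of GRCm38.p6, the build of mm10, read on the plus strand at chr10:56377050-56377299 for Gja1 and chr3:97032152-97032401 for Gja5. Capitals mark matches, on either strand, to 6 motifs searched, the T-box site AGGTGT, the NKX site TNAAGTG, the GATA site AGATAA, the AP-1 site TGANTCA, the GC box GGGCGG and the TATA box TATAAA.
Gja1: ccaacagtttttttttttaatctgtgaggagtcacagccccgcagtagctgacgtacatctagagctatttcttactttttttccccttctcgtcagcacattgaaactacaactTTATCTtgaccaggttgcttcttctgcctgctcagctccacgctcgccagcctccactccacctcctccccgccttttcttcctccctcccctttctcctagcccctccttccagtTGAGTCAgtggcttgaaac
Gja5: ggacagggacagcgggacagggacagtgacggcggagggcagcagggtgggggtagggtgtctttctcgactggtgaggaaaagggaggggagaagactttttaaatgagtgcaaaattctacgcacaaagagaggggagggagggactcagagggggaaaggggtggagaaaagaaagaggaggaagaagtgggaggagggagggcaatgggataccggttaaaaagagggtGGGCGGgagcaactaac
The Gja1 window held a GATA match, read on the opposite strand as TTATCT, at -135 to -130 from the start, and an AP-1 match, TGAGTCA, at -19 to -13. The Gja5 window held 1 match, a GC box at -17 to -12. Of 32851 promoters of the same length, 9.99% held the GATA letters, 6.75% the AP-1 letters and 32.7% the GC box. A match is a string of letters and was not tested for binding.

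Gja1, on chromosome 10 at 56377300 to 56390419, was higher in iCMs than in CSCs and highest in aCMs. It was at 4.23, 29.1 and 13.2 CPM in the CSC libraries, at 229, 342 and 210 CPM in the iCM libraries and at 1226 and 1009 CPM in the aCM libraries. The groups did not overlap, and CSC replicate 2 was the highest of its group. Gja1 was higher in iCMs than in CSCs by 4.07 on the log2 scale (SE 0.59, edgeR adjusted p = 3.8e-04), a ratio of 16.1 between the pooled counts. It was lower in iCMs than in aCMs, at -2.10 (SE 0.58, adjusted p = 0.013), so the adult cells held 4.17 times the pooled level of iCMs. This call was lost with library totals, at -1.39 (adjusted p = 0.052), and without aCM replicate 1, at -1.92 (adjusted p = 0.070). In aCMs vs CSCs the change was 6.17 (SE 0.67, adjusted p = 2.8e-05). Without CSC replicate 2 both differences from CSCs were larger, at 4.92 for iCMs (adjusted p = 4.3e-05) and 7.02 for aCMs (adjusted p = 4.0e-06). These are bulk samples, in which fewer cells of a type and less RNA per cell cannot be told apart. Of 13 cardiomyocyte markers, 13 were higher in iCMs than in CSCs, and in iCMs vs aCMs 9 were lower and 3 higher. The 3 that were higher, Myl7, Myl4 and Nppa, are genes of atrial and fetal muscle, named after their values were seen, and like Gja5 they were highest in iCMs. Myl7, an atrial myosin light chain gene, was at 717 to 891 CPM in iCMs and 6.44 and 14.6 CPM in aCMs (6.26, SE 0.43, adjusted p = 5.3e-06). The summed level of 10 smooth muscle and pericyte markers stepped up too. It was 319 to 387 CPM in CSCs, 1149 to 1672 CPM in iCMs and 7202 and 7875 CPM in aCMs. Des alone held most of the aCM sums, at 4973 and 5412 CPM. Of these 10, 8 were higher and 1 lower in iCMs vs CSCs, and 1 was higher and 6 lower in iCMs vs aCMs. The 1 higher, Tagln, was at 58.1 to 110 CPM in iCMs and 17.9 and 31.0 CPM in aCMs. Cnn1 was also above both aCM libraries in every iCM library but was not called, at 11.9 to 20.4 CPM and 4.99 and 6.90 CPM. Acta2 overlapped between them, at 288 to 647 CPM in iCMs and 358 and 234 CPM in aCMs, so these genes did not follow the summed step. Notch3 was lower in both iCMs and aCMs than in CSCs. Des, Tagln, Cnn1, Acta2 and Notch3 were named after their values were seen. The part of either set of markers in the levels of Gja1 was not tested.

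Gja5, on chromosome 3 at 97032402 to 97053634, was highest in iCMs. Its level was 0.636, 0.0909 and 0.782 CPM in CSCs, 22.9, 30.8 and 33.4 CPM in iCMs, and 5.52 and 7.02 CPM in aCMs. Every iCM library lay above both aCM libraries, and both of those above every CSC library. The log2 fold change was 5.89 in iCMs vs CSCs (SE 0.63, edgeR adjusted p = 4.8e-05) and 3.68 in aCMs vs CSCs (SE 0.62, adjusted p = 5.9e-04). In iCMs vs aCMs it was 2.21 (SE 0.62, adjusted p = 0.014), a pooled ratio of 4.33. This last call was lost without either aCM library, and the change was at 2.08 (adjusted p = 0.097) without aCM replicate 1 and at 2.42 (adjusted p = 0.065) without aCM replicate 2. RefSeq places another gene, 4930573H18Rik, across part of the Gja5 locus, and the sources used here do not say whether counting used strand, so reads of both could not be separated.

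The balance of the 2 connexins was also compared within libraries, where sequencing depth and scaling cancel. Gja5 stood at 9.99, 9.0 and 15.9 counts per 100 Gja1 counts in the iCM libraries and at 0.450 and 0.696 in the aCM libraries. The CSC libraries were spread over 15.0, 0.313 and 5.91. All 3 iCM ratios lay above both aCM ratios, while CSC replicate 2 fell below the aCMs, CSC replicate 1 lay within the iCM range and CSC replicate 3 between iCMs and aCMs. The log2 difference of the ratio was 4.33 in iCMs vs aCMs, with p = 0.1 in a two-sided exact permutation test, which is the smallest p that 3 against 2 libraries can give (adjusted p = 0.2 over the 10 ratio comparisons computed). In iCMs vs CSCs the difference was 1.89 (exact permutation p = 0.3, adjusted 0.375).

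**Figure D2:**
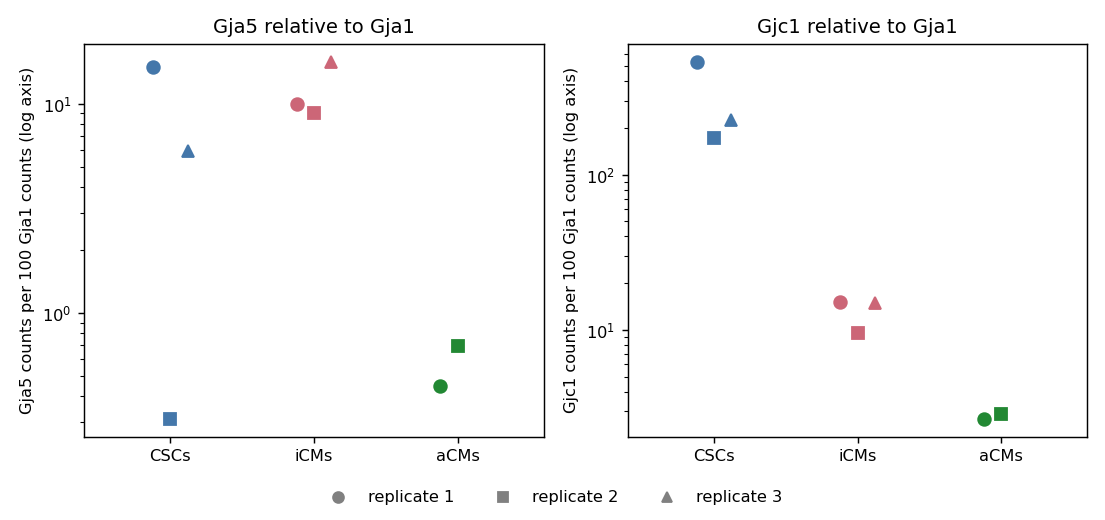
Counts of Gja5 (left) and Gjc1 (right) per 100 Gja1 counts in each library, on log vertical axes with a point per library shaped by replicate number. The Gja5 ratio was 9.0 to 15.9 in iCMs and 0.450 to 0.696 in aCMs with CSCs spread across both, and the Gjc1 ratio stepped down from 171 to 533 in CSCs to 9.62 to 15.1 in iCMs and 2.68 to 2.88 in aCMs.

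Gjc1, on chromosome 11 at 102799477 to 102819686, was called in none of the 3 comparisons. It was at 22.5, 49.7 and 29.8 CPM in CSCs, 34.6, 32.9 and 31.6 CPM in iCMs, and 32.9 and 29.1 CPM in aCMs. All groups overlapped, and the CSC libraries spanned the range of the rest. The log2 fold change was -0.04 in iCMs vs CSCs (95% interval -0.64 to 0.56, edgeR adjusted p = 0.91), 0.10 in iCMs vs aCMs (-0.59 to 0.78, adjusted p = 0.82) and -0.14 in aCMs vs CSCs (-0.82 to 0.54, adjusted p = 0.72). With TMM scaling these intervals leave room for changes, but for none of 2.5-fold. With library totals the change in iCMs vs aCMs was 0.81 (adjusted p = 0.035), and its interval is not given here. Against a rising Gja1, Gjc1 went from 533, 171 and 225 counts per 100 Gja1 counts in CSCs to 15.1, 9.62 and 15.0 in iCMs and 2.68 and 2.88 in aCMs. The 3 groups of ratios did not overlap, and each difference (-4.40 in iCMs vs CSCs, 2.22 in iCMs vs aCMs and -6.62 in aCMs vs CSCs, log2) had the smallest exact permutation p the design allows, 0.1, and an adjusted p of 0.2.

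Gja3, on chromosome 14 at 57034460 to 57058030, was all but absent from CSCs and stepped up as Gja1 did. It had 1 count in CSC replicate 1, at 0.0167 CPM, and 0 counts in the other CSC libraries, each of which allows up to 3 counts. The iCM libraries held 6.67, 6.45 and 3.92 CPM and the aCM libraries 36.9 and 28.4 CPM, with no overlap. It was called higher in iCMs vs CSCs (edgeR adjusted p = 1.2e-06), where the ratio of pooled counts was 970 with a 95% counting interval of 173 to 38400, and in aCMs vs CSCs (adjusted p = 1.8e-07), where it was 5120 (915 to 202000). In iCMs vs aCMs it was lower, by a log2 difference of -2.52 (SE 0.36, adjusted p = 3.4e-04). Relative to Gja1, iCMs and aCMs stood close together, at 2.91, 1.89 and 1.87 counts per 100 Gja1 counts in iCMs and 3.01 and 2.81 in aCMs, a log2 difference of -0.42 (exact permutation p = 0.3, adjusted 0.375). The iCM and aCM ratios overlapped. Genes of the lens, where this connexin is best known, stayed low, with a summed level over 6 markers of 1.11 to 1.27 CPM in CSCs, 1.97 to 3.05 CPM in iCMs and 1.82 to 2.63 CPM in aCMs. The 2 of the 6 that could be tested were Bfsp1 and Bfsp2. Bfsp2 stepped up as Gja3 did. It was at 0.0585 CPM or less in CSCs, 0.474 to 0.952 CPM in iCMs, and 2.04 and 0.990 CPM in aCMs. Bfsp2 was called higher in iCMs vs CSCs (edgeR adjusted p = 0.0017) and in aCMs vs CSCs (adjusted p = 3.8e-04). Bfsp1 was called higher in iCMs vs aCMs alone (adjusted p = 0.0095). Crygd, which encodes a lens crystallin, was at 0 in every library. These lens genes were named after their values were seen. The part of lens genes in the level of Gja3 was not tested.

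Gja4, on chromosome 4 at 127311420 to 127314039, was higher in both iCMs and aCMs than in CSCs. It was at 0.184, 0.409 and 0.263 CPM in CSCs, 7.24, 7.73 and 8.94 CPM in iCMs, and 7.89 and 13.0 CPM in aCMs. CSCs lay below all other libraries, while iCMs and aCMs overlapped. The log2 fold change was 4.77 in iCMs vs CSCs (SE 0.41, edgeR adjusted p = 1.1e-05) and 5.17 in aCMs vs CSCs (SE 0.44, adjusted p = 4.8e-06). Between iCMs and aCMs it was -0.40 (95% interval -1.26 to 0.46, adjusted p = 0.42) and was not called. Gja5 stood at 316, 398 and 373 counts per 100 Gja4 counts in iCMs and at 70.0 and 53.9 in aCMs, with no overlap (log2 difference 2.55, exact permutation p = 0.1, the smallest possible, adjusted 0.2).

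Endothelial transcripts were, like both genes, higher in iCMs than in CSCs. The summed level of 12 endothelial markers was 169 to 287 CPM in CSCs, 2121 to 2443 CPM in iCMs and 1613 to 2112 CPM in aCMs, with 10 of 12 higher in iCMs vs CSCs and 11 of 12 higher in aCMs vs CSCs. In iCMs vs aCMs, 2 of 12 were higher and 0 lower. A list of 8 arterial genes, which includes Gja4 and Gja5 themselves, had 6 higher in iCMs vs CSCs and 2 higher in iCMs vs aCMs. The 2 in the latter were Gja5 and the kinase gene Bmx, at 14.3 to 17.2 CPM in iCMs and 2.76 and 1.61 CPM in aCMs (log2 fold change 2.90, SE 0.40, adjusted p = 2.7e-04). Sox17, a transcription factor gene of arterial endothelium, was at 21.6 to 31.9 CPM in iCMs and 18.8 and 21.7 CPM in aCMs, a change of 0.37 (SE 0.28, adjusted p = 0.30). Bmx and Sox17 were picked after their values were seen. Other marker lists were higher in iCMs than in aCMs, as Gja5 was. The 9 epicardial and mesothelial markers summed to 175 to 212 CPM in CSCs, 360 to 686 CPM in iCMs and 18.8 and 19.8 CPM in aCMs, with 8 of 9 higher in iCMs vs CSCs, 9 of 9 higher in iCMs vs aCMs, and Upk1b at 0 in CSCs. The 6 erythroid markers summed to 0.497 to 2.70 CPM in CSCs, 6369 to 26200 CPM in iCMs and 16.5 and 38.5 CPM in aCMs, with 6 of 6 higher in iCMs vs CSCs and 5 of 6 in iCMs vs aCMs. The 8 fibroblast markers summed to 6111 to 13140 CPM in CSCs, 4396 to 4598 CPM in iCMs and 343 and 587 CPM in aCMs, with 5 higher and 2 lower in iCMs vs CSCs and 6 higher in iCMs vs aCMs. The part of these cell types, endothelial cells included, in the levels of Gja4 and Gja5 was not tested.

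**Figure D3:**
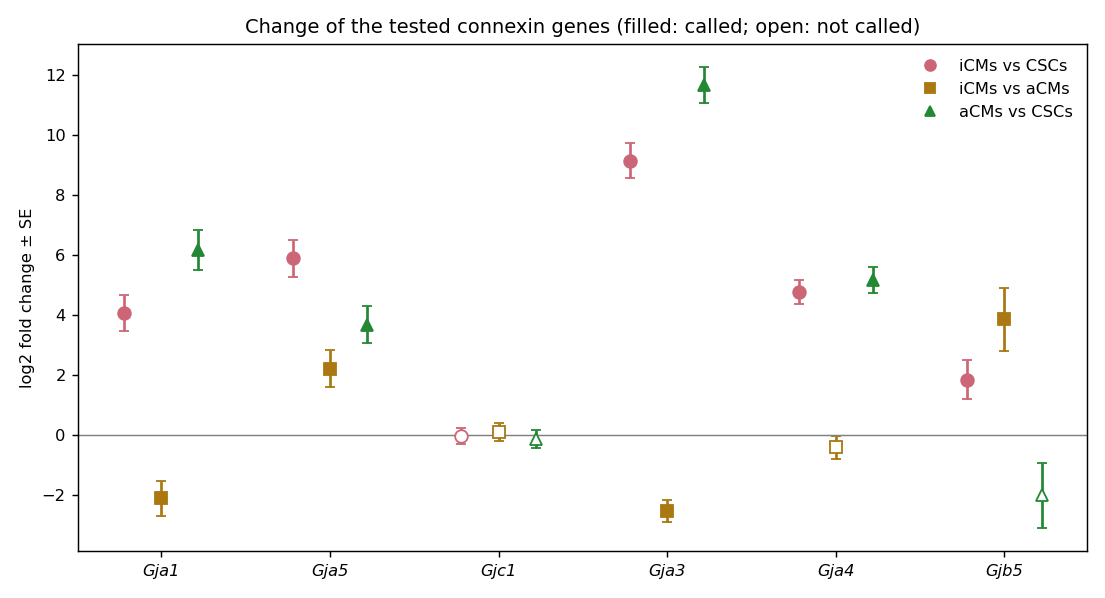
Log2 fold change with its SE (vertical axis) of the 6 tested connexin genes in each of the 3 comparisons, marked by colour and shape; filled symbols passed adjusted p below 0.05 and 2.5-fold and open ones did not. Gja1 and Gja3 were below 0 in iCMs vs aCMs and Gja5 above 0, Gjc1 stayed within 0.14 of 0 in all 3, and the values of Gja3 against CSCs and of Gjb5 against aCMs rest on groups with 1 and 3 counts, so their height depends on the prior count of the fit.

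Gjb5, on chromosome 4 at 127354809 to 127358164, was a low-level gene with its highest values in iCMs. It was at 0.574, 0.436 and 0.994 CPM in CSCs, 1.64, 4.40 and 1.06 CPM in iCMs, and 0 and 0.288 CPM in aCMs. The groups did not overlap, but iCM replicate 3 was close to CSC replicate 3, and iCM replicate 2 stood above the rest. In iCMs vs CSCs the log2 fold change was 1.85 (SE 0.65, edgeR adjusted p = 0.039). The call was lost when any of several libraries was left out, at 1.75 (adjusted p = 0.090) without CSC replicate 1, 1.62 (0.089) without CSC replicate 2, 2.08 (0.052) without iCM replicate 1 and 1.06 (0.23) without iCM replicate 2. In iCMs vs aCMs it was called higher (adjusted p = 0.013), with 3 counts in all of aCMs and a pooled ratio of 14.9 (95% counting interval 5.01 to 72.7), and this call was lost without aCM replicate 1 (adjusted p = 0.075). In aCMs vs CSCs it was not called (adjusted p = 0.14), although both aCM libraries lay below every CSC library. The summed level of 8 epithelial and keratinocyte markers moved with Gjb5, at 11 to 13.3 CPM in CSCs, 51.3 to 95.4 CPM in iCMs and 4.67 to 6.61 CPM in aCMs. Of these, 6 of 8 were higher in iCMs than in CSCs, 6 of 8 higher in iCMs than in aCMs, and Cdh1 was at 0 in both aCM libraries. Krt10 and Trp63 were called in neither comparison. Trp63 was at 2.39 to 2.80 CPM in CSCs and 0.732 to 1.95 CPM in iCMs, with every iCM library below every CSC library. These markers were named after their values were seen. Their part in the level of Gjb5 was not tested.

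Gjb2, on chromosome 14 at 57098602 to 57104702, was at the limit of detection. It had 0, 0.0152 and 0.0292 CPM in CSCs, 0.252, 0.221 and 0 CPM in iCMs, and 0.131 and 0 CPM in aCMs. That is 2 counts in all of CSCs, 15 in iCMs and 1 in aCMs, and the groups overlapped. The pooled ratio of iCMs to CSCs was 15.1 with a 95% counting interval of 3.52 to 136, and that of iCMs to aCMs was 3.41 (0.525 to 144). In a fit without the filter, iCMs vs CSCs had an edgeR adjusted p of 0.067, so no difference was shown at this depth. RefSeq places Gm32912 across part of this locus.

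Of the other 16 connexin and pannexin genes in the table, 8 passed the filter. Of these, 2 were called higher and 1 lower in iCMs vs CSCs, 3 higher and 0 lower in iCMs vs aCMs, and 2 higher and 4 lower in aCMs vs CSCs. The shares of all tested genes were 22% and 7.16%, 19.6% and 15.3%, and 24.2% and 20.4%, and 2 of 8 is near the shares of higher genes. Gjd3 (Cx30.2), a connexin of the mouse atrioventricular node, was at 0, 0 and 0.0585 CPM in CSCs, 1.05, 1.94 and 1.31 CPM in iCMs, and 0.657 and 0 CPM in aCMs. It was called higher in iCMs vs CSCs (adjusted p = 0.0014, pooled ratio 112, 95% counting interval 30.3 to 936). In aCMs vs CSCs it rested on 5 and 2 counts in groups that overlapped (adjusted p = 0.043), a call lost with a replicate block and in most of the fits that left out a library.

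The pannexins form channels in the cell membrane and are related to connexins in function but not in sequence. Panx1 was at 8.75, 14.7 and 10.9 CPM in CSCs, 17.1, 16.1 and 18.0 CPM in iCMs, and 1.12 and 0.900 CPM in aCMs. It stood lowest in the adult cells, with log2 fold changes of 4.16 in iCMs vs aCMs (SE 0.38, edgeR adjusted p = 2.1e-05) and -3.59 in aCMs vs CSCs (SE 0.37, adjusted p = 2.1e-05). Panx2 went the other way, higher than in CSCs by 3.17 in iCMs (SE 0.60, adjusted p = 0.0018) and by 3.6 in aCMs (SE 0.66, adjusted p = 1.0e-03), at 2.17 CPM or less in every library. Panx3 and Gjc3 were called in no comparison.

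Of 25 genes whose proteins bind, carry, modify or lie beside connexins, all tested, 6 were higher and 1 lower in iCMs vs CSCs, 5 higher and 6 lower in iCMs vs aCMs, and 9 higher and 4 lower in aCMs vs CSCs. Of all tested genes, 22% were higher and 7.16% lower in the first comparison. The shares were 19.6% and 15.3% in the second and 24.2% and 20.4% in the third, so several of these counts lie near them. Pkp2 and Tmem65, genes of the intercalated disc, were lower in iCMs than in aCMs, as Gja1 was. The desmosomal gene Pkp2 was at 0.318 to 0.678 CPM in CSCs, 61.7 ± 14.4 CPM (SD, n = 3) in iCMs, and 210 and 223 CPM in aCMs (7.04 in iCMs vs CSCs, SE 0.32, edgeR adjusted p = 1.3e-07, and -1.81 in iCMs vs aCMs, SE 0.26, adjusted p = 3.1e-04). Cav3, the muscle caveolin, had 0 counts in all CSC libraries, 51.1 to 72.3 CPM in iCMs and 138 and 148 CPM in aCMs. Tmem65, which encodes an intercalated disc protein that binds Gja1, was at 69.2 to 82.5 CPM in iCMs and 263 and 227 CPM in aCMs (-1.72, SE 0.18, adjusted p = 4.3e-05).

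Other partners followed other patterns. Cdh2, the N-cadherin of the disc, was at 123 to 151 CPM in CSCs and 133 to 173 CPM in iCMs, which overlapped, and at 817 and 628 CPM in aCMs (-2.28 in iCMs vs aCMs, SE 0.20, edgeR adjusted p = 2.0e-05). Src, a kinase that phosphorylates Gja1 and closes its channels, stepped down with no overlap, from 124 to 149 CPM in CSCs to 37.1 to 46.2 CPM in iCMs and 3.72 and 5.23 CPM in aCMs (-1.73 in iCMs vs CSCs, SE 0.18, adjusted p = 4.5e-05, and 3.22 in iCMs vs aCMs, SE 0.24, adjusted p = 7.8e-06). Ccn3, a secreted matrix protein that binds Gja1, was highest in iCMs, at 29.4 to 31.7 CPM beside 2.82 to 4.90 CPM in CSCs and 2.98 and 3.45 CPM in aCMs (2.85 in iCMs vs CSCs, SE 0.27, adjusted p = 2.1e-05). The 5 partners higher in iCMs than in aCMs were Src, Ccn3, Dbn1, Mapk7 and Csnk1d, and the 4 lower in aCMs than in CSCs were Src, Dbn1, Mapk7 and Csnk1d, of which Dbn1, Mapk7 and Csnk1d were named after their values were seen.

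Of 21 transcription factor genes known to act on connexin genes in heart or vessel, 16 were higher and 0 lower in iCMs vs CSCs, 5 higher and 2 lower in iCMs vs aCMs, and 13 higher and 3 lower in aCMs vs CSCs. Over all tested genes the shares higher and lower were 22% and 7.16%, 19.6% and 15.3%, and 24.2% and 20.4% in these comparisons. Those with the smallest p in iCMs vs CSCs were Hand2 (9.43, SE 0.27, edgeR adjusted p = 2.3e-08), Irx3 (7.97, SE 0.30), Tbx5 (8.16, SE 0.32) and Tbx20 (7.28, SE 0.29). In the mouse, Tbx5 activates Gja5, and Irx3 raises Gja5 and represses Gja1 in the ventricular conduction system. Tbx5 was at 0.0585 to 0.109 CPM in CSCs, 20.8 to 29.4 CPM in iCMs, and 46.5 and 41.8 CPM in aCMs, and Irx3 at 0.0585 to 0.0877 CPM, 17.8 to 23.3 CPM, and 40.0 and 46.8 CPM. Both were thus highest in aCMs, unlike Gja5, though neither was called between iCMs and aCMs (-0.87, adjusted p = 0.012 and -1.12, adjusted p = 0.0022, both under 2.5-fold).

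Jun, Shox2, Id2 and Fos were among the 5 factors higher in iCMs than in aCMs. Jun, a subunit of AP-1, was at 445 to 530 CPM in iCMs and 80.4 and 75.9 CPM in aCMs (2.68, SE 0.25, edgeR adjusted p = 2.7e-05), with CSCs at 38.6 to 60.2 CPM. Shox2, a factor of the sinus node, was at 15.1 to 22.6 CPM in CSCs, 8.27 to 9.21 CPM in iCMs, and 1.05 and 0.863 CPM in aCMs, with no overlap (3.19 in iCMs vs aCMs, SE 0.35, adjusted p = 6.0e-05). Id2, a helix-loop-helix factor of the conduction system, was at 80.4 to 106 CPM in iCMs and 5.32 and 6.90 CPM in aCMs (3.98, SE 0.68, adjusted p = 9.7e-04). Hand2 was at -1.28 in iCMs vs aCMs (SE 0.19, adjusted p = 3.7e-04), under the 2.5-fold threshold. The 2 lower were Nkx2-5 (-1.57, SE 0.45, adjusted p = 0.016) and Hopx (-1.44, SE 0.28, adjusted p = 0.0023), and the 3 lower in aCMs than in CSCs were Shox2, Id2 and Tbx18. Fos, Nkx2-5, Hopx and Tbx18 were named after their values were seen.

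The genes whose profile was most like that of each connexin were found by the root mean square difference of centred log2 CPM over the 8 libraries, among 12905 or 12906 candidates. Nearest to Gja1 were Klhl23 (0.38), Dpf3 (0.40) and Ccrl2 (0.42), and nearest to Gja3 were Kcnj2 (0.23), the inward rectifier potassium channel, Bche (0.27) and Limch1 (0.34). Gja4 lay nearest to Mgat4a (0.21), Arhgef28 (0.35) and Gata6 (0.35), Gja5 to Pxdc1 (0.48), Lum (0.54) and Ddc (0.58), and Gjb5 to Armcx6 (0.59), Gng2 (0.60) and Lag3 (0.64). For Gjc1 they were Dock1, Rpa2 and Usp31, at 0.11 to 0.13. The likeness is a description of 8 libraries in 3 groups, with no test.

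Small RNA libraries of the same 3 populations held 4.09 to 9.78 M counts and 1818 miRNAs, of which 718 were tested. Among miRNAs tied to these connexins by work in muscle and vessels, miR-1a-3p, miR-206-3p and miR-130a-3p repress Gja1, and in the mouse miR-208a is needed for Gja5 in the atria. The mature sequences are shown from 5′ to 3′ from RefSeq on GRCm38.p6, because a miRNA finds its targets by its seed, bases 2 to 8, which is in capitals. The seeds of the 3 shown differ. No sequence of miR-1a-3p was available, so its seed was not compared with that of miR-206-3p or the others.
miR-206-3p: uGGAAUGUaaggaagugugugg
miR-130a-3p: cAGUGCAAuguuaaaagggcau
miR-208a-3p: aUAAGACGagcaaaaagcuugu
Calls of miRNAs took the same adjusted p threshold with a minimum change of 0.6 on the log2 scale. Calls were frequent in this assay, with 64.2% of miRNAs called in iCMs vs CSCs, 62% in iCMs vs aCMs and 68.9% in aCMs vs CSCs, and those of single miRNAs are read against these shares.

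miR-1a-3p was at 0.412, 0.173 and 1.28 CPM of small RNA counts in CSCs, 82.3, 381 and 182 CPM in iCMs, and 4347 and 4511 CPM in aCMs. It stepped up with no overlap, in the same order as Gja1, by a log2 difference of 8.29 in iCMs vs CSCs (SE 0.72, edgeR adjusted p = 3.8e-07), and was lower in iCMs than in aCMs at -4.36 (SE 0.57, adjusted p = 3.6e-05). These calls held with each library left out, at 9.40 without CSC replicate 3 and 7.63 without iCM replicate 2 for the first and -5.26 without iCM replicate 2 for the second. miR-206-3p went the opposite way, at 7.0, 11.8 and 9.42 CPM in CSCs, 0, 0.0963 and 0.148 CPM in iCMs, and 0.460 and 0 CPM in aCMs. It had 2 counts in all of iCMs and 2 in all of aCMs, and CSCs held 108 times the level of iCMs (95% counting interval 29.5 to 899) and 39.2 times that of aCMs (10.7 to 326), both called. miR-130a-3p was at 2981, 3291 and 2930 CPM in CSCs, 3094, 3699 and 4033 CPM in iCMs, and 1823 and 1445 CPM in aCMs. CSCs and iCMs overlapped (0.23, SE 0.24, adjusted p = 0.41), and the adult cells were lowest, with iCMs 1.14 above them (SE 0.28, adjusted p = 0.0031) on the log2 scale. That call was lost without aCM replicate 2, at 0.78 (adjusted p = 0.12). In aCMs vs CSCs it was lower, at -0.91 (SE 0.28, adjusted p = 0.011), a call lost with the DESeq2 test, at -0.57 (adjusted p = 0.073), and without CSC replicate 3, iCM replicate 2, aCM replicate 1 or aCM replicate 2, at -0.75, -0.65, -0.75 and -0.46 (adjusted p = 0.057, 0.065, 0.12 and 0.32).

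miR-208a-3p, which lies in an intron of Myh6, was at 0.412, 0.519 and 0.233 CPM in CSCs, 154, 181 and 252 CPM in iCMs, and 337 and 471 CPM in aCMs. It was highest in aCMs with no overlap, by 8.96 in iCMs vs CSCs (SE 0.49, edgeR adjusted p = 1.1e-08) and -1.05 in iCMs vs aCMs (SE 0.35, adjusted p = 0.019). The difference between iCMs and aCMs turned to 0.074 with library totals (adjusted p = 0.88) and was not called without aCM replicate 2, at -0.99 (adjusted p = 0.097).

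**Figure D4:**
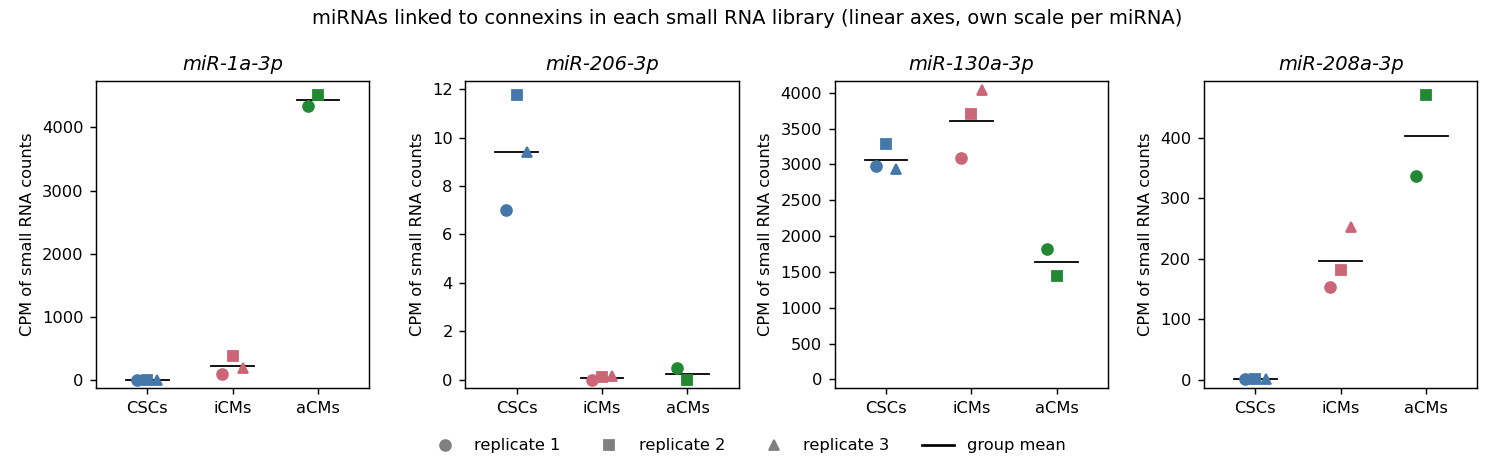
Level of the 4 miRNAs in CPM of small RNA counts (linear vertical axis, own scale per miRNA) in each library, with points shaped by replicate number and bars at group means. miR-1a-3p was at 1.28 CPM or less in CSCs and at 4347 and 4511 CPM in aCMs, miR-206-3p was high in CSCs alone, miR-130a-3p was lowest in aCMs, and miR-208a-3p was at 0.519 CPM or less in CSCs and at 154 CPM or more in iCMs and aCMs.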

How the data were processed

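Each of the 3 CSC, 3 iCM and 2 aCM samples has a total RNA and a small RNA library. For the former, the authors depleted ribosomal RNA, aligned read pairs to the mouse genome (mm10 in the submitters' processing notes) with Strand NGS and Ensembl transcripts, and deposited estimated counts per gene. They carry no scaling by length or depth, 51.4% of values were not whole numbers, and they were rounded here. For the latter, the authors used Cutadapt to trim reads, quantified them with iSMART against miRBase and deposited raw counts per mature miRNA. Whether counting used strand is not given in the sources used here. In the total RNA table, 956 entries were genes outside the annotation, with 0.147% of the counts, and 36308 of 39043 entries matched a symbol. Per-library depth is given with the results.

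Features with low counts were removed by filterByExpr, libraries were scaled by TMM, and the quasi-likelihood test of edgeR 4.0.16 in R 4.3.3 was fitted over the 8 libraries of each assay with Benjamini-Hochberg adjustment over all 20254 genes or 718 miRNAs. Thresholds (2.5-fold for genes, a log2 fold change of 0.6 for miRNAs) follow the study. SE is the fold change over the square root of F. Intervals on ratios of counts are exact at 95%, cover counting error only, and stand in for a fold where a group had 1 to 3 counts. Likeness used log2 CPM with a prior count of 2 among genes with a mean of at least 1. No library was a duplicate of another. The steps were tested on simulated data. The alternatives tried were the test of DESeq2 1.42.0, edgeR with DESeq2 size factors or with library totals, no filter, a stricter filter (1 CPM in 2 libraries), only the groups compared, a replicate block, adjusted p alone and leave-one-out fits.

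The members and all lists were chosen with earlier results of these data known. Named are all 7 genes, called genes among other connexins and pannexins, up to 4 partners and 4 transcription factors of smallest p per comparison, and the 3 genes most like each connexin. Promoters and miRNA sequences came from RefSeq tables, which matched 6 of the 7 connexins and 3 of the 4 miRNAs. Some genes that this rule names are not reported here.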

Additional observations from a re-analysis of the deposited data

How the results depend on the processing

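Of 288 values of single connexin genes under the alternatives, 278 kept their side of the threshold, 10 did not and 0 called values changed sign. Besides the losses of Gja1, Gja5 and Gjb5 given with those genes, Gjb5 in iCMs vs CSCs fell to 1.65 with the replicate block (adjusted p = 0.086). Uncalled values crossed 0 in 11 cases: Gja4 in iCMs vs aCMs ran from -0.68 to 0.30, and Gjc1 from -0.27 to 0.34 in iCMs vs CSCs and from -0.78 to 0.25 in aCMs vs CSCs. Of 132 miRNA values, 8 changed side, given with miR-130a-3p and miR-208a-3p, and 1 of these, miR-208a-3p in iCMs vs aCMs with library totals (0.074), changed sign. Gjc1 stayed under 2.5-fold, reaching 0.81 in iCMs vs aCMs with library totals (adjusted p = 0.035). Of 438 counts, 408 were within 1.5 times. Library totals gave 6706 higher and 1754 lower genes in iCMs vs aCMs (3972 and 3097 with TMM), 6695 lower in aCMs vs CSCs (4140), and 1 lower connexin and 1 lower miRNA in iCMs vs aCMs (2 and 2). Adjusted p alone gave 4440 lower genes in iCMs vs CSCs (1451). The DESeq2 test gave 1 lower miRNA in aCMs vs CSCs (2 with edgeR).

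With 1 library left out, connexins called in iCMs vs aCMs ran from 0 to 2 higher and from 1 to 2 lower, and miRNAs from 0 to 1 higher and from 1 to 2 lower. Without aCM replicate 1 the connexin counts were 0 higher and 1 lower, and without aCM replicate 2 they were 1 higher. Lower miRNAs in aCMs vs CSCs ran from 1 to 2, lower other connexins and pannexins in iCMs vs CSCs from 1 to 2, and higher ones in aCMs vs CSCs from 1 to 2. Lower transcription factors ran from 1 to 3 in iCMs vs aCMs and from 1 to 4 in aCMs vs CSCs. The causes were not tested. Where aCMs had 1 library, it was assumed to vary like the other groups.

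Replicate numbers were treated as names and not as a pairing of samples, since same-numbered libraries did not correlate above 0.1 in every pair. They correlated at 0.034 to 0.155 in total RNA and 0.04 to 0.203 in small RNA. Different-numbered ones correlated at -0.115 to 0.067 and at -0.272 to 0.059, so whether libraries are paired was not settled. The block gave 4383 higher and 1312 lower genes in iCMs vs CSCs. Of 6 libraries, 5 in total RNA and 4 in small RNA correlated best with their own number. With it, 1 other connexin or pannexin was higher in aCMs vs CSCs (2 without). Depth limited Gjb2, Gjb5 and Gjd3 most, with 1 to 5 counts in a group.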
